A study of Homo sapiens with 12 samples.

Results

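The genes described here are 9 that encode serine/arginine-rich (SR) splicing factors, SRSF1, SRSF2, SRSF3, SRSF4, SRSF5, SRSF6, SRSF7, SRSF10 and SRSF11, together with CLK1, the gene of a kinase that phosphorylates SR proteins. They were chosen by name, and all 10 were found, each once, among the 58735 genes counted. Nilotinib was studied for its effect on hemin-driven erythroid differentiation in K562, an established human erythroleukemia line whose growth depends on BCR-ABL1, the tyrosine kinase that this drug inhibits. RNA-seq was performed on 12 libraries, with 3 biological replicates in each of 4 groups. Mock DMSO received the solvent alone (0 μM nilotinib, 0 h of hemin), mock nilotinib received 0.1 μM nilotinib and no hemin, hemin DMSO received the solvent and 50 μM hemin for 24 h, and hemin nilotinib received 0.1 μM nilotinib and 50 μM hemin for 24 h. DMSO or nilotinib was given for 24 h before hemin. According to the methods, harvest took place after either 0 or 24 h of hemin, so the mock groups could have spent less time in culture and in the drug than the hemin groups. Hemin and time cannot then be told apart in the comparisons of hemin groups with mock groups.

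SR proteins combine RNA-binding domains with a tail rich in arginine and serine, and they bind exons of the pre-mRNA and help the spliceosome to recognise the neighbouring splice sites. SRPK kinases phosphorylate the tail in the cytoplasm, which allows the import receptor TNPO3 to carry the proteins into the nucleus, and CLK kinases phosphorylate it further in the nucleus. SR genes are known to limit their own output through exons or introns that bring in a premature stop codon and send the transcript to nonsense-mediated decay, and CLK1 is known to keep part of its own transcripts in the nucleus with introns retained. Counts per gene, as used here, add up all these transcript forms.

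In the GENCODE 29 annotation, which gives the same identifiers, names and positions as the count table for all 58735 genes, the 10 genes have 116 transcripts. Of these, 41 are protein coding, 23 are marked for nonsense-mediated decay and 33 as retained intron. Each of the 10 genes has at least 1 transcript marked for decay, with 6 in SRSF7, and 8 of the 10 have at least 1 with a retained intron, with 8 each in CLK1 and SRSF5. Internal exons that occur in decay transcripts and overlap no exon of a protein-coding transcript of the same gene were found in SRSF3, SRSF4, SRSF6, SRSF7, SRSF10 and SRSF11. In SRSF3, the longer of these exons is 456 bases long (GRCh38, chr6:36599821-36600276, plus strand), and in SRSF7 the longest has 449 bases (chr2:38748898-38749346, minus strand). The counts do not resolve these exons.

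Of the 10 genes, 3 have exons that overlap those of another gene, SRSF1, SRSF2 and, by 1.9% of its exon length (RF02271), SRSF4. SRSF6 overlaps none but shares 0.74% of its 150-base words with AC005822.1. Of the exon length of SRSF1, 56.6% also belongs to AC015813.2, a gene model on the same strand, and 13.2% lies opposite AC015813.5. Of that of SRSF2, 36.7% lies opposite MFSD11, a gene for a membrane transporter, and 3.28% holds the microRNA gene MIR636. Whether reads were counted by strand is not given in the sources used here, so reads of SRSF2 and MFSD11 in the shared stretch may not be told apart. AC015813.2 had at most 0.152 CPM (counts scaled to libraries of 1000000) in any library. Reads in the stretch that SRSF1 shares with AC015813.2 may have been left out of both genes. The level of SRSF1 given here would then be too low. MFSD11 was at 38.1 ± 2.55, 42.7 ± 5.74, 41.9 ± 3.16 and 33.8 ± 2.10 CPM (SD, n = 3 each) in the mock groups (DMSO, then nilotinib) and the hemin groups (DMSO, then nilotinib).

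RefSeq promoters (GRCh38.p14, 250 bases before to 50 after the start) were matched for 9 of the 10 genes. The promoters of CLK1, SRSF3, SRSF7 and SRSF10 are shown because these are the 4 genes that were higher with hemin alone, and that of SRSF1 because its log2 fold change with nilotinib alone was the lowest of the 10. Letters searched on both strands were CCAAT (the CCAAT box), CACGTG (an E-box), CCGGAAG (an ETS motif), TGACG (the core of a cAMP response element) and GAANNTTC (the core of a heat-shock element). TGACG and its reverse complement CGTCA can overlap each other, and CACGTG and GAANNTTC read the same on both strands. Capitals mark the matches, which are CCAAT or its reverse complement ATTGG and TGACG or CGTCA.
CLK1: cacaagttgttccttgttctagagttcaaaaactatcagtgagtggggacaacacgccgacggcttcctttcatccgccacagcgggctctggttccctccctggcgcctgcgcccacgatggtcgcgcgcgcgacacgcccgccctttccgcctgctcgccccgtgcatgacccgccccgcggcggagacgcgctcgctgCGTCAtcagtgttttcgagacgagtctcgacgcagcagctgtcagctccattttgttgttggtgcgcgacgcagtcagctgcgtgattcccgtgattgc
SRSF3: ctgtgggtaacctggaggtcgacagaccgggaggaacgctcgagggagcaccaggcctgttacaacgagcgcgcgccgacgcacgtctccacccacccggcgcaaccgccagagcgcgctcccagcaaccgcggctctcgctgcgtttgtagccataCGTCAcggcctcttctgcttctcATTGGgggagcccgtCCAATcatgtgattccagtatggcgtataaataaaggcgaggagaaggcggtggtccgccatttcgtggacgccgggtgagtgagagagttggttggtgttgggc
SRSF7: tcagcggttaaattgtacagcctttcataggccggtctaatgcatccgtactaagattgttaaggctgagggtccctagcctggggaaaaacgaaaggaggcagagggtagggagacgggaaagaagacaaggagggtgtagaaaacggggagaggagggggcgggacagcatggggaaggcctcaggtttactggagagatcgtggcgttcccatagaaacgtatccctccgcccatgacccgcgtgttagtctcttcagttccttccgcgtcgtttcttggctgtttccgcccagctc
SRSF10: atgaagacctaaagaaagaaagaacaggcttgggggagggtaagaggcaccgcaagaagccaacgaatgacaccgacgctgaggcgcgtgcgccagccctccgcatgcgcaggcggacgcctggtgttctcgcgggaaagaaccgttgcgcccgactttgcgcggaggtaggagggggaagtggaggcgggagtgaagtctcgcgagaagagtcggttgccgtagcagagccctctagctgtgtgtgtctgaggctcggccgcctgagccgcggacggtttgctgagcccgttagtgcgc
SRSF1: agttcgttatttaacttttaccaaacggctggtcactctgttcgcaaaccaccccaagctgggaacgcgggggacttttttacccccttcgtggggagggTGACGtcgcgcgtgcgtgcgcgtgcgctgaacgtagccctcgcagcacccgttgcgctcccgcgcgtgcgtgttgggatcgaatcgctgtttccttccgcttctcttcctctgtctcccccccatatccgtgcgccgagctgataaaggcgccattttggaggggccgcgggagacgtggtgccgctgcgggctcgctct
These windows are chr2:200864609-200864908 (minus strand) for CLK1, chr6:36594112-36594411 (plus strand) for SRSF3, chr2:38751445-38751744 (minus strand) for SRSF7, chr1:23980278-23980577 (minus strand) for SRSF10 and chr17:58007197-58007496 (minus strand) for SRSF1. TGACG was found in 5 of the 9 promoters (SRSF1, SRSF3, SRSF5, SRSF11 and CLK1) and in 25.0% of 27305 promoters of the same length. CCAAT was found in SRSF3 alone, against 35.7% of all promoters, and CCGGAAG in SRSF4 and SRSF5, against 10.7%. CACGTG (7.43% of all promoters) and GAANNTTC (6.87%) were in 0 of the 9. The windows of SRSF7 and SRSF10 held none of the 5. The promoters of the 9 genes had 17 to 48 CpG dinucleotides (median 30), whereas the median over all promoters was 14. A match describes letters in a window and not a bound site.

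The total count per library was 40418880 to 50506990 in mock DMSO, 33457078 to 36893606 in mock nilotinib, 36153691 to 41860655 in hemin DMSO and 35333809 to 40874699 in hemin nilotinib. All 10 genes were well covered, and the lowest count of any of them in a library was 460, for SRSF1 in mock nilotinib. Levels are given as CPM on the scale of edgeR's TMM factors, which adjust library totals for differences in composition, and levels of different genes are compared as FPKM, which divide by gene length. A gene is called changed at an adjusted p under 0.05 in edgeR's quasi-likelihood test, fitted to 20821 genes with enough counts in any group. All 10 genes were among the 20821. Bulk RNA does not tell a lower level in each cell from a smaller share of cells with a high level.

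The libraries differed in composition. The 20 most abundant genes held 17.3%, 17.4% and 15.98% of the counts in the 3 hemin DMSO libraries, and 9.89% to 13.9% in the other 9. Messenger RNAs of the mitochondrial genome made up 1.80%, 0.961% and 2.16% of the counts in hemin DMSO, 5.48%, 6.68% and 5.95% in mock DMSO, 5.86%, 4.61% and 3.88% in mock nilotinib and 7.19%, 5.31% and 3.88% in hemin nilotinib (replicates 1, 2 and 3). The hemin DMSO libraries thus stood apart on both measures, and their part in the results for CLK1, SRSF3, SRSF7 and SRSF10 was not tested.

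Among erythroid markers of K562, GATA1, TAL1, LMO2, KLF1, TFRC, HBG1 and HBG2 had counts in every library. The transcription factor GATA1 had 296 ± 28.3 CPM in mock DMSO, 376 ± 22.3 CPM in mock nilotinib and 158 ± 27.8 CPM in hemin DMSO, while hemin nilotinib had 317 ± 12.2 CPM (SD, n = 3 each). Hemin nilotinib replicate 1 stood apart in TFRC, the transferrin receptor, with 2845 CPM against 519 CPM and 429 CPM in replicates 2 and 3, and so lay within the 2503 to 3006 CPM of mock nilotinib. On principal components 2 and 3 of log2(CPM + 1), for genes with a mean of at least 10 CPM, it was at 5.77 and -11.48, beside the mock nilotinib libraries (0.74 to 5.76 and -10.26 to -7.32) and away from replicates 2 and 3 (21.21 and 29.1, 11.56 and 24.68). In these measures this library was like those given nilotinib without hemin, the reason was not tested, and it bears on every comparison with hemin nilotinib. Of the markers of other cells, those of T cells (CD3D, CD3E and CD3G) summed to 2.50 to 13.5 CPM in the DMSO groups and 0.0575 to 0.421 CPM in the nilotinib groups, and CD3D made up nearly all of the sum in the DMSO groups. Of the fibroblast markers, COL1A1 had means of 8.69 CPM in mock DMSO and 22.4 CPM in hemin DMSO, COL1A2 of 2.85 CPM and 6.22 CPM and DCN of 0.408 CPM and 2.17 CPM, without overlap of the libraries. In mock nilotinib and hemin nilotinib the means were 16.9 CPM and 15.2 CPM for COL1A1, 0.355 CPM and 0.252 CPM for COL1A2 and 0.298 CPM and 0.353 CPM for DCN, and COL3A1 was at most 0.685 CPM in any library. Among epithelial markers, CDH1 and KRT5 added less than 1 CPM to EPCAM, which had means of 63.1 CPM in mock DMSO, 43.1 CPM in mock nilotinib and 51.7 CPM in hemin DMSO, while hemin nilotinib had 32.6 CPM. The part of these transcripts in the results was not tested.

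CLK1 (ENSG00000013441; chr2:200853009-200864744, minus strand) encodes a nuclear dual-specificity kinase of SR proteins. Its level in replicates 1, 2 and 3 was 46.7, 39.4 and 54.0 CPM in mock DMSO and 63.8, 69.0 and 98.1 CPM in mock nilotinib. It was 125, 202 and 170 CPM in hemin DMSO and 64.5, 62.5 and 103 CPM in hemin nilotinib. The 3 hemin DMSO libraries were the highest of all 12, the 3 mock DMSO libraries were the lowest, and the nilotinib groups lay between them and overlapped each other. In order of their means, mock DMSO (46.7 ± 7.29 CPM), hemin nilotinib (76.8 ± 23.1 CPM), mock nilotinib (76.95 ± 18.5 CPM) and hemin DMSO (166 ± 38.6 CPM; SD, n = 3 each), the middle pair did not differ beyond its spread.

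With hemin alone, CLK1 rose 3.55-fold (log2 fold change 1.83, SE 0.22, adjusted p = 5.87e-06, edgeR). With nilotinib alone it rose 1.65-fold (0.72, SE 0.22, adjusted p = 0.0143, edgeR). When nilotinib was added to hemin it was 2.16-fold lower (-1.11, SE 0.22, adjusted p = 0.000358, edgeR). The direction of the nilotinib effect was thus opposite with and without hemin, and the test of that difference gave -1.83 on the log2 scale (SE 0.31, adjusted p = 0.000491, edgeR). Hemin in the presence of nilotinib was not called (log2 fold change 0.00 with an SE of 0.22, adjusted p = 0.999, edgeR). The rise with nilotinib alone rested on single libraries. It was 0.61 without mock DMSO replicate 2 (adjusted p = 0.0731) and 0.48 without mock nilotinib replicate 3 (adjusted p = 0.107), and over all alternatives its adjusted p ranged from 0.000112 to 0.107. The other calls of CLK1 held under every alternative, with the difference between -2.06 and -1.59.

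**Figure D1:**
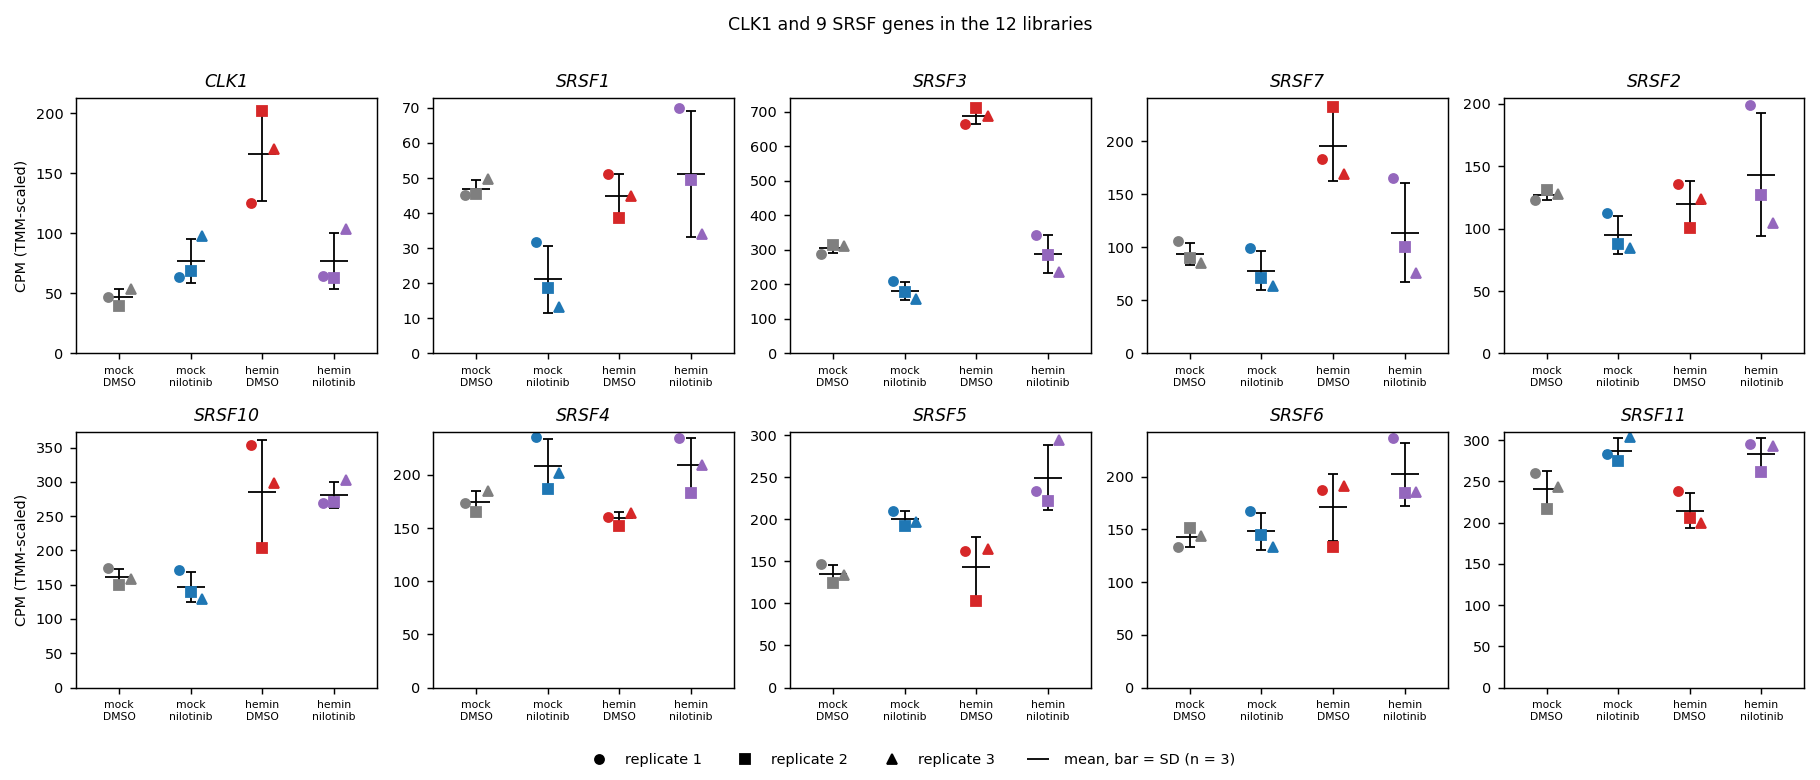
Level of CLK1 and the 9 SRSF genes in the 12 libraries, in TMM-scaled CPM from 0, by group on the horizontal axis. Each symbol is 1 library (circle, square and triangle for replicates 1, 2 and 3), and the line and bar are the mean and SD of 3. For CLK1 and SRSF3 the 3 hemin DMSO libraries lie above the other 9.

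SRSF3, SRSF7 and SRSF1 encode SR proteins that shuttle between nucleus and cytoplasm and, besides splicing, serve as adaptors for the export of mRNA. SRSF3 (ENSG00000112081; chr6:36594353-36605600, plus strand), the smallest member of the family, had 289, 313 and 312 CPM in mock DMSO and 210, 177 and 157 CPM in mock nilotinib (replicates 1, 2 and 3). It had 666, 712 and 687 CPM in hemin DMSO and 343, 285 and 235 CPM in hemin nilotinib. The hemin DMSO libraries were all higher than the other 9 and the mock nilotinib libraries all lower than the other 9, while mock DMSO and hemin nilotinib overlapped.

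SRSF3 was called in all 4 comparisons of groups. It was 1.68-fold lower with nilotinib alone (log2 fold change -0.75, SE 0.15, adjusted p = 0.000736, edgeR) and 2.39-fold lower with nilotinib in the presence of hemin (-1.26, SE 0.15, adjusted p = 2.49e-06, edgeR). It rose 2.26-fold with hemin alone (1.18, SE 0.15, adjusted p = 9.23e-06, edgeR) and 1.59-fold with hemin in the presence of nilotinib (0.67, SE 0.15, adjusted p = 0.0187, edgeR). The effects of nilotinib with and without hemin differed by -0.51 (SE 0.21), which was not called (adjusted p = 0.0806, edgeR) but was called without hemin nilotinib replicate 1 (-0.64, adjusted p = 0.0191) and with limma-trend on the FPKM (-0.56, adjusted p = 0.0499), within a range of 0.0191 to 0.259 over the alternatives. The rise with hemin in the presence of nilotinib lost its call without mock nilotinib replicate 2 (0.63, adjusted p = 0.116), without mock nilotinib replicate 3 (0.56, adjusted p = 0.13), without hemin nilotinib replicate 2 (0.66, adjusted p = 0.0788) and in the 6 libraries alone (0.68, adjusted p = 0.083), with adjusted p of 0.00116 to 0.13 over the alternatives.

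SRSF7 (ENSG00000115875; chr2:38743599-38751494, minus strand), which differs from SRSF3 by a zinc knuckle in its RNA-binding part, had 106, 90.2 and 85.6 CPM in mock DMSO and 99.4, 71.5 and 63.8 CPM in mock nilotinib. It had 184, 232 and 170 CPM in hemin DMSO, and in hemin nilotinib 166 CPM in replicate 1, 76.2 CPM in replicate 3 and a value between them in replicate 2 (mean 114 CPM). The 3 hemin DMSO libraries were the highest, but replicate 1 of hemin nilotinib came close to them, and the other groups overlapped one another. SRSF7 rose 2.08-fold with hemin alone (log2 fold change 1.06, SE 0.23, adjusted p = 0.00123, edgeR) and was 1.71-fold lower with nilotinib in the presence of hemin (-0.78, SE 0.23, adjusted p = 0.00803, edgeR). Nilotinib alone gave -0.26 (SE 0.23) and hemin in the presence of nilotinib gave 0.54 (SE 0.23), and neither was called, although the latter was with all genes tested (adjusted p = 0.0158, in a range of 0.0158 to 0.594) and was 0.17 without hemin nilotinib replicate 1 (adjusted p = 0.594). The nilotinib effects with and without hemin differed by -0.51 (SE 0.33, adjusted p = 0.253, edgeR), and without hemin nilotinib replicate 1 this became -0.87 and was called (adjusted p = 0.0127, in a range of 0.0127 to 0.558 over the alternatives).

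SRSF1 (ENSG00000136450; chr17:58003360-58007346, minus strand), a splicing factor with a pair of RNA recognition motifs, had 45.2, 45.6 and 49.7 CPM in mock DMSO and 31.8, 18.6 and 13.3 CPM in mock nilotinib. It had 51.3, 38.5 and 44.8 CPM in hemin DMSO and 69.9, 49.4 and 34.0 CPM in hemin nilotinib. Every mock nilotinib library was below every library of the other groups, which overlapped one another, and the nilotinib groups spread the most, with a highest over lowest library of 2.39 in mock nilotinib and 2.06 in hemin nilotinib against 1.10 in mock DMSO and 1.33 in hemin DMSO. SRSF1 was 2.21-fold lower with nilotinib alone (log2 fold change -1.14, SE 0.27, adjusted p = 0.00261, edgeR) and was not called with nilotinib in the presence of hemin (0.19, SE 0.26, adjusted p = 0.55, edgeR). The difference between these effects was 1.33 (SE 0.38, adjusted p = 0.0142, edgeR), and it stayed between 1.05 and 1.76 under the alternatives.

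Hemin alone left SRSF1 uncalled (log2 fold change -0.06, SE 0.26), and in the presence of nilotinib hemin gave a 2.41-fold higher level (1.27, SE 0.27, adjusted p = 0.0144, edgeR). That last call was lost without mock nilotinib replicate 2 (1.16, adjusted p = 0.0895), mock nilotinib replicate 3 (1.002, adjusted p = 0.0808) or hemin nilotinib replicate 2 (1.27, adjusted p = 0.0527) and in the 6 libraries alone (1.27, adjusted p = 0.096). Over all alternatives the log2 fold change stayed between 0.97 and 1.68 and the adjusted p between 1.94e-11 and 0.096.

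SRSF10 and SRSF2 encode SR proteins of other habits. SRSF10 represses splicing when it loses its phosphates, as in mitosis and after heat shock, and SRSF2 is a nuclear factor that marks the speckles in which splicing factors gather. SRSF10 (ENSG00000188529; chr1:23964804-23980927, minus strand) had 174, 150 and 158 CPM in mock DMSO and 171, 140 and 129 CPM in mock nilotinib. It had 353, 204 and 298 CPM in hemin DMSO and 269, 270 and 302 CPM in hemin nilotinib. All 6 libraries with hemin were higher than all 6 without it, and within each of these sets the groups overlapped.

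SRSF10, like SRSF3, was called higher with hemin whether nilotinib was present or not. The log2 fold change was 0.83 with hemin alone (1.78-fold, SE 0.17, adjusted p = 0.000761, edgeR) and 0.93 with hemin in the presence of nilotinib (1.91-fold, SE 0.17, adjusted p = 0.00703, edgeR), and the difference between the effects was 0.11 (SE 0.24, adjusted p = 0.78, edgeR). The second call was lost without mock nilotinib replicate 2 (0.88, adjusted p = 0.0546) or replicate 3 (0.83, adjusted p = 0.0589), with adjusted p from 4.68e-07 to 0.0589 over the alternatives. Nilotinib gave -0.13 without hemin and -0.02 with it (SE 0.17 each), neither called, and the sign of the latter changed between settings.

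SRSF2 (ENSG00000161547; chr17:76734115-76737374, minus strand) was called in no comparison. Its level was 127 ± 3.92 CPM in mock DMSO, 94.9 ± 15.1 CPM in mock nilotinib and 120 ± 18.1 CPM in hemin DMSO, while hemin nilotinib had 143 ± 49.3 CPM (SD, n = 3 each). The spread in hemin nilotinib came from 199 CPM in replicate 1 against 127 CPM and 104 CPM in the others, and all neighbouring groups in the order of means overlapped. Nilotinib alone gave -0.42 on the log2 scale (SE 0.19, adjusted p = 0.0937, edgeR), which was called with the replicate number as a block (-0.45, adjusted p = 0.035), with all genes tested (adjusted p = 0.0198) and in the 6 libraries alone (adjusted p = 0.00671), in a range of 0.00671 to 0.229. Hemin in the presence of nilotinib gave 0.59 (SE 0.20, adjusted p = 0.0844, edgeR), which was called with the block (0.57, adjusted p = 0.0437), with all genes (adjusted p = 0.00568) and without hemin nilotinib replicate 3 (0.77, adjusted p = 0.0282), in a range of 0.00568 to 0.303, and which was 0.28 without replicate 1 (adjusted p = 0.246). Nilotinib in the presence of hemin gave 0.26 (SE 0.19), which was called without hemin nilotinib replicate 3 (0.46, adjusted p = 0.0402, in a range of 0.0402 to 0.828) and turned to -0.04 without replicate 1. The nilotinib effects with and without hemin differed by 0.68 (SE 0.28, adjusted p = 0.0734, edgeR). This was called without mock nilotinib replicate 1 (0.83, adjusted p = 0.0437), without hemin nilotinib replicate 3 (0.91, adjusted p = 0.0103), with the block (0.67, adjusted p = 0.034), with all genes (0.75, adjusted p = 0.00633) and with library totals (0.87, adjusted p = 0.0273), in a range of 0.00633 to 0.172. It was 0.38 without hemin nilotinib replicate 1 (adjusted p = 0.172).

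SRSF4, SRSF5 and SRSF6 encode a closely related trio of SR proteins with a pair of RNA recognition motifs each, and SRSF11 a more distant member. SRSF5 (ENSG00000100650; chr14:69726900-69772005, plus strand) had 147, 124 and 134 CPM in mock DMSO and 210, 193 and 197 CPM in mock nilotinib. It had 163, 102 and 165 CPM in hemin DMSO and 233, 221 and 294 CPM in hemin nilotinib. Every library with nilotinib was higher than every library without it, and the hemin nilotinib libraries were all above those of mock nilotinib. SRSF5 rose 1.48-fold with nilotinib alone (log2 fold change 0.57, SE 0.17, adjusted p = 0.0122, edgeR) and 1.74-fold with nilotinib in the presence of hemin (0.80, SE 0.17, adjusted p = 0.000597, edgeR). The first of these was 0.51 and not called without mock DMSO replicate 2 (adjusted p = 0.0606, in a range of 0.000246 to 0.0606), and the difference between them was 0.23 (SE 0.24, adjusted p = 0.487, edgeR). Hemin gave 0.08 without nilotinib and 0.32 with it (SE 0.17 each), neither called.

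SRSF4 (ENSG00000116350; chr1:29147743-29181987, minus strand) had 174 ± 10.1 CPM in mock DMSO, 208 ± 25.3 CPM in mock nilotinib and 159 ± 6.43 CPM in hemin DMSO, while hemin nilotinib had 209 ± 26.1 CPM (SD, n = 3 each). SRSF11 (ENSG00000116754; chr1:70205682-70253052, plus strand) had 240 ± 22.1, 287 ± 15.4, 215 ± 20.8 and 283 ± 19.3 CPM (SD, n = 3 each) in the same order. In SRSF11 the nilotinib groups lay above the DMSO groups without overlap and overlapped each other. In SRSF4 the lowest hemin nilotinib library (183 CPM) lay just below the highest mock DMSO library (185 CPM), the nilotinib groups overlapped each other, and the nilotinib and DMSO groups were otherwise apart. With nilotinib in the presence of hemin, SRSF4 rose by 0.39 on the log2 scale (1.31-fold, SE 0.13, adjusted p = 0.0147, edgeR) and SRSF11 rose by 0.40 (1.32-fold, SE 0.13, adjusted p = 0.0106, edgeR). With nilotinib alone the log2 fold change was 0.26 for each (SE 0.13 each, adjusted p = 0.124 for SRSF4 and 0.11 for SRSF11, edgeR), neither called, and the differences between the effects were 0.14 for each gene (SE 0.18 each) and not called. In the 6 libraries alone, both passed with nilotinib alone, SRSF4 at an adjusted p of 0.0468 (range 0.0468 to 0.417) and SRSF11 at 0.0351 (range 0.0351 to 0.372).

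SRSF6 (ENSG00000124193; chr20:43457928-43464247, plus strand) was called in no comparison, with 142 ± 9.11 CPM in mock DMSO, 148 ± 17.3 CPM in mock nilotinib and 171 ± 32.2 CPM in hemin DMSO, while hemin nilotinib had 202 ± 30.1 CPM (SD, n = 3 each). Neighbouring groups in this order overlapped. Its log2 fold changes were 0.06 with nilotinib alone, 0.24 with nilotinib in the presence of hemin, 0.26 with hemin alone and 0.45 with hemin in the presence of nilotinib (SE 0.15 each). The change with hemin alone was called without hemin DMSO replicate 2 (0.42, adjusted p = 0.0249, in a range of 0.0249 to 0.878), and that with nilotinib in the presence of hemin was called with library totals (0.41, adjusted p = 0.038, in a range of 0.038 to 0.574).

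Read by comparison, nilotinib in the presence of hemin had 6 of the 10 genes called, 3 higher (SRSF4, SRSF5 and SRSF11) and 3 lower (CLK1, SRSF3 and SRSF7). Of all genes tested, 64.2% were called, 32.4% higher and 31.8% lower, so the share of these genes was near the background, and their median log2 fold change was 0.22 against 0.02 over all genes. Over the alternatives this median of the 10 genes was -0.01 to 0.38, so its sign is not fixed. Nilotinib alone had 4 called, 2 higher (CLK1 and SRSF5) and 2 lower (SRSF1 and SRSF3), against 42.5% of all genes, 20.7% higher and 21.8% lower. The medians were -0.04 for the 10 genes (-0.15 to 0.01 over the alternatives) and 0.00 for all genes. With the block, which pairs mock DMSO and mock nilotinib libraries of 1 number, SRSF2 was added to these 4, and 9294 of all genes were called against 8851.

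With hemin alone, 4 of the 10 were called higher (CLK1, SRSF3, SRSF7 and SRSF10) and 0 lower, against 53.6% of all genes called, 25.7% higher and 27.8% lower. By edgeR, 0 were lower at an unadjusted p under 0.05 as well, and DESeq2 and limma-trend on the FPKM called 0 lower, whereas with plain library totals SRSF4 (-0.37, adjusted p = 0.0273, in a range of 0.0273 to 0.594) and SRSF11 (-0.41, adjusted p = 0.0121, in a range of 0.0121 to 0.583) were called lower. The medians were 0.17 for the 10 genes and -0.05 for all genes, and with library totals they were -0.06 and -0.29. The median of the 10 genes therefore changed sign with the scaling and its direction is not fixed by these data. Hemin in the presence of nilotinib changed 5.80% of all genes, 3.52% higher and 2.28% lower (1208 genes, but 213 when mock nilotinib replicate 2 was left out and 2793 when hemin nilotinib replicate 1 was), and 3 of the 10 were called higher (SRSF1, SRSF3 and SRSF10) and 0 lower. At an unadjusted p under 0.05 there were 6 higher and 0 lower by edgeR and by DESeq2, and DESeq2 and limma-trend called 3 higher and 0 lower. This count was 0 without mock nilotinib replicate 2 or replicate 3, 1 without hemin nilotinib replicate 2 or in the 6 libraries alone, 5 with all genes tested and 4 with the block, where 1587 of all genes were called. Without mock nilotinib replicates 2 and 3, 213 and 234 of all genes were called, and 286 without hemin nilotinib replicate 2. The 6 libraries alone gave 183, and the fit of all genes gave 1987. The split of 733 higher and 475 lower over all genes became 411 and 423 without hemin nilotinib replicate 3, 527 and 545 with library totals and 360 and 381 with limma-trend. The medians were 0.50 for the 10 genes and 0.03 for all genes.

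The effect of nilotinib differed between cells with and without hemin in 2 of the 10, higher with hemin for SRSF1 and lower with hemin for CLK1. Over all genes the difference was called for 30.1%, 17.1% positive and 13.0% negative. Without hemin nilotinib replicate 1, 4 of the 10 were called, and 6569 of all 21850 genes tested in that setting. Comparisons that have a group in common share its libraries, so their calls are not independent of one another.

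**Figure D2:**
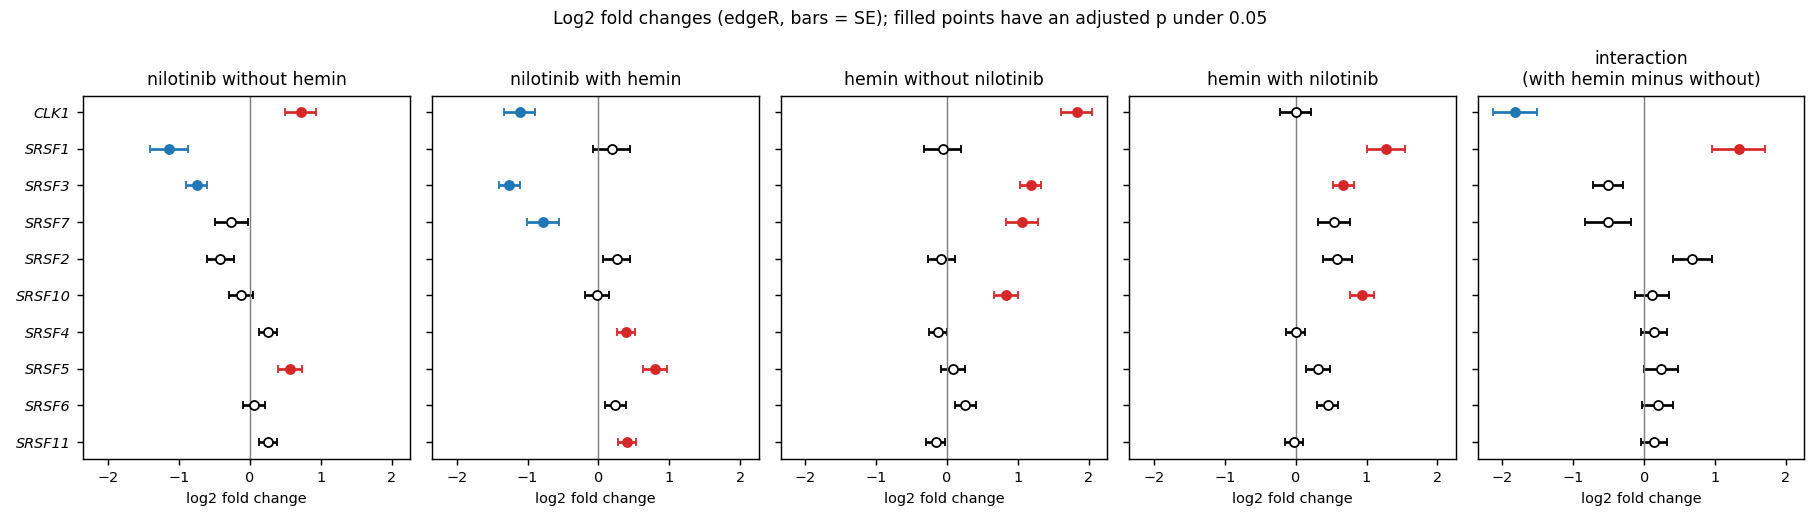
Log2 fold changes of the 10 genes in the 4 comparisons of groups and in the interaction (the nilotinib effect with hemin minus that without), with SE as bars, from edgeR. Filled points have an adjusted p under 0.05, red higher and blue lower. CLK1 lies at 0.72 with nilotinib alone and at -1.11 with nilotinib in the presence of hemin, and SRSF3 is filled in all 4 comparisons of groups.

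Within the nilotinib groups the replicates differed in a patterned way. In mock nilotinib, replicate 1 was the highest library for 8 of the 10 genes, the exceptions being CLK1 and SRSF11, which were highest in replicate 3. In hemin nilotinib, replicate 1 was the highest for 7 of the 10, and CLK1, SRSF5 and SRSF10 were highest in replicate 3. The mitochondrial mRNA share was also highest in replicate 1 of both groups (5.86% and 7.19%) and lowest in replicate 3 (3.88% in each), and its part in this pattern was not tested. The highest over the lowest library had a median of 1.15 over the 10 genes in mock DMSO, 1.33 in mock nilotinib, 1.36 in hemin DMSO and 1.39 in hemin nilotinib.

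Per length, the 9 SRSF genes had a summed level of 239 ± 1.93 FPKM in mock DMSO, 221 ± 24.1 FPKM in mock nilotinib, 336 ± 19.2 FPKM in hemin DMSO and 300.1 ± 46.4 FPKM in hemin nilotinib (SD, n = 3 each). By library the sum was 355, 317 and 335 FPKM in hemin DMSO against 240, 237 and 240 FPKM in mock DMSO, without overlap. It was 353, 278 and 269 FPKM in hemin nilotinib against 248.8, 210 and 205 FPKM in mock nilotinib, also without overlap. The deposited FPKM were not scaled by library totals. Library totals shifted the median log2 fold change over all genes by -0.239 with hemin alone. The gap between hemin DMSO and mock DMSO therefore depends on the scaling. The gene length used takes in the exons of all annotated transcripts (10277 bases for SRSF10, 3340 for SRSF1), so the order of genes depends on the annotation too. SRSF1 may also be too low for the reads it shares with AC015813.2. In mock DMSO the highest were SRSF3 at 42.3 ± 2.14 FPKM and SRSF2 at 41.6 ± 1.59 FPKM, which differed by less than their spread. The lowest were SRSF10 at 15.4 ± 1.09 FPKM and SRSF1 at 13.8 ± 0.763 FPKM (SD, n = 3 each). CLK1 was lower still, at 8.92 ± 1.37 FPKM. In hemin DMSO, SRSF3 stood first at 97.5 ± 3.73 FPKM, followed by SRSF7 at 48.7 ± 8.67 FPKM, and CLK1 at 32.4 ± 7.62 FPKM was above SRSF1 (13.5 ± 1.90 FPKM) and SRSF4 (18.0 ± 0.568 FPKM; SD, n = 3 each).

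The make-up of the SRSF pool shifted with the groups. SRSF3 held 17.7 ± 0.972% of the summed FPKM in mock DMSO, 11.3 ± 0.595% in mock nilotinib, 29.1 ± 2.75% in hemin DMSO and 13.2 ± 1.23% in hemin nilotinib (SD, n = 3 each). SRSF5 was highest where nilotinib was given, with 10.4 ± 0.729%, 16.8 ± 1.16%, 7.97 ± 1.61% and 15.5 ± 3.81% in the same order. In mock nilotinib SRSF5 was first in each library (36.9 ± 1.53 FPKM), followed by SRSF11 (33.5 ± 1.81 FPKM), SRSF6 (31.9 ± 3.59 FPKM) and SRSF2 (31.1 ± 4.80 FPKM; SD, n = 3 each), which did not differ beyond their spread. In hemin nilotinib the highest means were those of SRSF2 (46.6 ± 16.4 FPKM), SRSF5 (45.6 ± 6.44 FPKM) and SRSF6 (43.1 ± 6.68 FPKM; SD, n = 3 each), which did not differ beyond their spread. SRSF2 had 64.9 FPKM in replicate 1 against 41.5 FPKM and 33.4 FPKM in replicates 2 and 3. These shares are described and were not tested. A share does not depend on how a library was scaled.

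**Figure D3:**
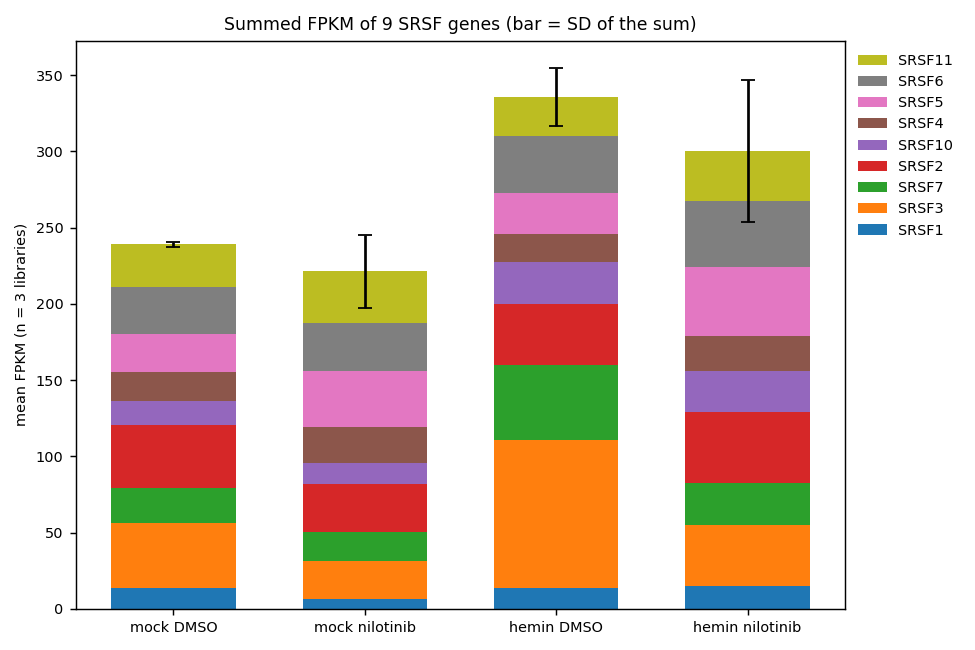
Mean FPKM of the 9 SRSF genes, stacked by gene for each group (n = 3 libraries), with the SD of the sum as a bar and the axis from 0. The sum is 336 FPKM in hemin DMSO, of which SRSF3 (orange) is 97.5 FPKM, against 239 FPKM and 42.3 FPKM in mock DMSO. The gap between these sums depends on how the libraries were scaled.

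The genes with a profile over the 12 libraries most like that of CLK1 were ARMCX6, YTHDC1, PRKD2, KRT10 and LRRC37B, by the root-mean-square difference of centred log2 CPM among 9452 genes with a mean of at least 10 CPM. The differences were 0.212, 0.24, 0.259, 0.264 and 0.265 on the log2 scale. YTHDC1, which encodes a nuclear reader of N6-methyladenosine in RNA, had mean levels of 63.0 CPM in mock DMSO, 79.4 CPM in mock nilotinib and 201 CPM in hemin DMSO, while hemin nilotinib had 88.3 CPM. The mean profile of the 9 SRSF genes was most like those of SLC20A1, CENPL, C2orf69, NUP50 and MFSD1, at differences of 0.113 to 0.122. SLC20A1, a phosphate transporter gene, had means of 136, 127, 171 and 173 CPM in the same order of groups. This likeness was found in the same libraries and says nothing of shared function.

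Among the other SR proteins, SRSF8 had means of 49.0 ± 4.42 CPM in mock DMSO, 55.8 ± 0.926 CPM in mock nilotinib and 29.9 ± 3.17 CPM in hemin DMSO, while hemin nilotinib had 68.5 ± 15.5 CPM (SD, n = 3 each). It was 1.64-fold lower with hemin alone (log2 fold change -0.71, SE 0.15, adjusted p = 0.000937, edgeR) and rose 2.29-fold with nilotinib in the presence of hemin (1.20, SE 0.15, adjusted p = 4.89e-06, edgeR). SRSF9 was called in no comparison and had 89.4 to 107 CPM as group means. SRSF12 had 17 to 25 counts per library in hemin DMSO and 0 to 6 in the other 9 libraries. No fold or call is given at these counts, because the gene entered the tests through the hemin DMSO libraries.

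The other kinases of SR proteins and TNPO3 were fixed as a list of 10. With nilotinib in the presence of hemin, 7 were called higher and 2 lower, where 32.4% and 31.8% of all genes were, with a median log2 fold change of 0.82 against 0.02 over all genes. With nilotinib alone 3 were called higher and 3 lower, against 20.7% and 21.8% of all genes (median 0.16 against 0.00). With hemin alone 2 were called higher and 5 lower, against 25.7% and 27.8% (median -0.46 against -0.05), and with library totals 1 and 6. CLK3, a CLK kinase like CLK1, had 67.3, 61.2 and 64.4 CPM in mock DMSO and 220, 241 and 258 CPM in mock nilotinib. It had 76.5, 64.8 and 74.6 CPM in hemin DMSO and 265, 281 and 340 CPM in hemin nilotinib. Its libraries with nilotinib were all far above those without it. CLK3 rose 3.73-fold with nilotinib alone (log2 fold change 1.90, SE 0.13, adjusted p = 1.71e-08, edgeR) and 4.11-fold in the presence of hemin (2.04, SE 0.13, adjusted p = 3.48e-09, edgeR), while hemin was not called in either setting (0.16 and 0.30, SE 0.13 each).

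CLK4, the closest relative of CLK1, also rose with nilotinib in both settings, by 1.23 on the log2 scale without hemin and by 1.47 with it (SE 0.16 each). Its means were 14.9 ± 2.18, 35.0 ± 2.99, 10.4 ± 1.81 and 28.9 ± 1.78 CPM (SD, n = 3 each) in the mock groups (DMSO, then nilotinib) and the hemin groups (DMSO, then nilotinib). With hemin alone it was 1.43-fold lower (-0.52, SE 0.16, adjusted p = 0.0125, edgeR), a call that 2 of 13 alternatives did not make (adjusted p from 0.000867 to 0.0648). CLK2 had 53.3 ± 2.38, 54.1 ± 6.85, 22.3 ± 3.20 and 48.8 ± 9.55 CPM (SD, n = 3 each) in that order. It was 2.39-fold lower with hemin alone (-1.26, SE 0.16, adjusted p = 7.14e-06, edgeR) and 2.19-fold higher with nilotinib in the presence of hemin (1.13, SE 0.16, adjusted p = 1.15e-05, edgeR). CLK1 was therefore the member of the CLK family that was called higher with hemin alone, where CLK2 and CLK4 were called lower and CLK3 was not called.

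SRPK1, the main cytoplasmic SR protein kinase, had 191 ± 10.9 CPM in mock DMSO, 142 ± 8.21 CPM in mock nilotinib and 96.7 ± 8.60 CPM in hemin DMSO, while hemin nilotinib had 139 ± 35.0 CPM (SD, n = 3 each). It was lower with hemin alone (log2 fold change -0.98, SE 0.16, adjusted p = 7.56e-05, edgeR) and higher with nilotinib in the presence of hemin (0.52, SE 0.16, adjusted p = 0.0082, edgeR). It was also lower with nilotinib alone (-0.43, SE 0.16, adjusted p = 0.0364, edgeR), which 6 of 13 alternatives did not call (adjusted p from 0.00131 to 0.108). SRPK2 was called in 1 comparison, lower with nilotinib alone (-0.36, SE 0.14, adjusted p = 0.0481, edgeR), which 10 of 13 alternatives did not call (adjusted p from 0.00216 to 0.124). SRPK3 was low, with 4.86 ± 0.722 CPM in mock DMSO, 6.44 ± 1.96 CPM in mock nilotinib and 1.63 ± 0.279 CPM in hemin DMSO, while hemin nilotinib had 5.56 ± 1.01 CPM (SD, n = 3 each). It was lower with hemin alone (-1.58, SE 0.26, adjusted p = 0.000109, edgeR) and higher with nilotinib in the presence of hemin (1.77, SE 0.26, adjusted p = 2.42e-05, edgeR).

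DYRK1A, a kinase that also acts on SR proteins, had 103 ± 10.8, 127 ± 13.4, 234 ± 24.0 and 132 ± 3.52 CPM (SD, n = 3 each) in the mock groups (DMSO, then nilotinib) and the hemin groups (DMSO, then nilotinib). It rose with hemin alone (log2 fold change 1.19, SE 0.13, adjusted p = 1.82e-06, edgeR), as CLK1 did, and was lower with nilotinib in the presence of hemin (-0.82, SE 0.13, adjusted p = 3.82e-05, edgeR). Its relative DYRK1B was higher with nilotinib in both settings (1.51 without hemin, SE 0.18, and 1.58 with it, SE 0.19). DYRK1B was lower with hemin alone (-0.73, SE 0.18, adjusted p = 0.00324, edgeR). With hemin in the presence of nilotinib it was lower too (-0.66, SE 0.18, adjusted p = 0.0403, edgeR), which 6 of 13 alternatives did not call. PRPF4B, a kinase of the spliceosome, was called in 1 comparison, higher with nilotinib in the presence of hemin (0.42, SE 0.17, adjusted p = 0.044, edgeR), which 7 of 13 alternatives did not call (adjusted p from 0.00966 to 0.222). TNPO3 was lower with nilotinib in both settings (-0.42 without hemin and -0.72 with it, SE 0.12 each), the former not called by 1 of 13 alternatives (adjusted p from 0.00179 to 0.0525). It was higher with hemin alone (0.30, SE 0.12, adjusted p = 0.0475, edgeR), which 7 of 13 alternatives did not call (adjusted p from 0.021 to 0.669). It had 285 ± 12.6, 213 ± 14.8, 350 ± 33.1 and 212 ± 10.8 CPM (SD, n = 3 each) in the same order of groups.

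**Figure D4:**
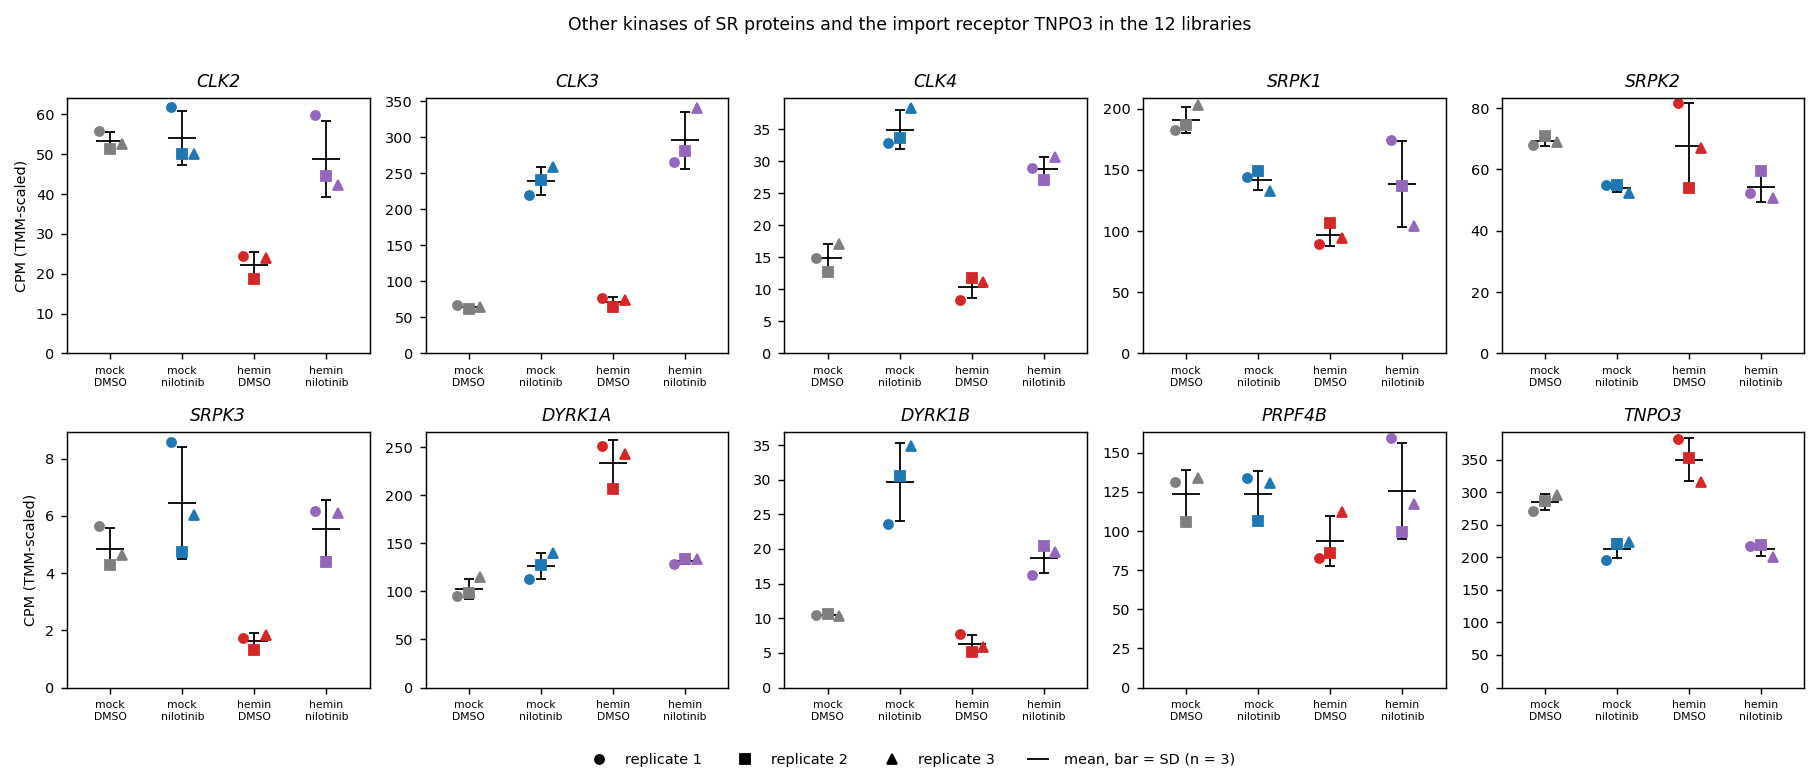
Level of 9 other kinases of SR proteins and of the import receptor TNPO3 in the 12 libraries, in TMM-scaled CPM from 0, by group on the horizontal axis. Symbols are libraries (circle, square and triangle for replicates 1, 2 and 3), with mean and SD of 3. CLK3 lies at 220 to 340 CPM in the 6 libraries with nilotinib and at 61.2 to 76.5 CPM in the 6 without it.

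Of the 25 SR-related splicing factors, 9 were called higher and 1 lower with nilotinib alone, against 20.7% and 21.8% of all genes (median log2 fold change 0.27 against 0.00 over all genes). Over the alternatives 4 to 14 were higher and 0 to 2 lower. With nilotinib added to hemin 8 were called higher and 7 lower, against 32.4% and 31.8% (median 0.07 against 0.02), and with library totals 12 and 3, and over the alternatives the median was -0.03 to 0.24. With hemin alone 7 were called higher and 4 lower, against 25.7% and 27.8% (median 0.16 against -0.05), and with library totals 5 and 9 (median -0.08), so that the sign depends on the scaling. TRA2B, an SR-like activator of exon inclusion, moved the most with hemin alone, from 138 ± 5.38 CPM in mock DMSO to 668 ± 83.4 CPM in hemin DMSO (SD, n = 3 each), or by 2.28 on the log2 scale (SE 0.19, adjusted p = 9.26e-08, edgeR). When nilotinib was added to hemin it was at 179 ± 33.9 CPM, lower by -1.90 on the log2 scale (SE 0.18, adjusted p = 2.15e-07, edgeR). Its paralog TRA2A went the same way, with 1.42 (SE 0.15) and -0.59 (SE 0.14). LUC7L, a U1-associated factor, was lower with hemin alone (-0.65, SE 0.15) and higher with nilotinib in the presence of hemin (1.68, SE 0.15).

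The 24 hnRNP genes, whose products often counter SR proteins, had 12 called lower and 0 higher with nilotinib alone, where 21.8% and 20.7% of all genes were (median -0.32 against 0.00 over all genes). At an unadjusted p under 0.05, edgeR gave 13 lower and 0 higher, and DESeq2 called 12 lower and 0 higher. Over all alternatives 6 to 14 were called lower and 0 higher. With nilotinib in the presence of hemin 8 were called lower and 4 higher, against 31.8% and 32.4% of all genes (median -0.16 against 0.02), and with library totals 6 and 7 (median 0.01). With hemin alone 6 were called higher and 5 lower, against 25.7% and 27.8% (median 0.14 against -0.05), and with library totals 1 and 7 (median -0.10). Neither direction is therefore fixed by these data. HNRNPH2 rose with hemin alone from 40.1 ± 1.61 CPM to 97.0 ± 10.1 CPM (SD, n = 3 each; log2 fold change 1.28, SE 0.13), and SYNCRIP was lower, with 168 ± 8.14 CPM and 80.01 ± 0.627 CPM (SD, n = 3 each; -1.07, SE 0.16).

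The core spliceosome, 32 genes of snRNP proteins and their partners, had 21 called lower and 4 higher with nilotinib in the presence of hemin (median -0.62 against 0.02 over all genes) and 15 lower and 2 higher with nilotinib alone (-0.35 against 0.00), the latter with 8 to 20 lower and 1 to 3 higher over the alternatives. The shares of all genes called lower and higher were 31.8% and 32.4% in the former comparison and 21.8% and 20.7% in the latter. With hemin alone 14 were called higher and 4 lower, against 25.7% and 27.8% of all genes (0.31 against -0.05), and with library totals 10 and 9. These medians kept their sign under all alternatives tried, at -0.80 to -0.44, -0.42 to -0.33 and 0.07 to 0.38. SF3B4, a subunit of the U2 snRNP, had 62.7 ± 5.83 CPM in mock DMSO and 132 ± 9.44 CPM in hemin DMSO, while hemin nilotinib had 60.7 ± 10.8 CPM (SD, n = 3 each). Its log2 fold changes were 1.07 with hemin alone (SE 0.14, adjusted p = 1.57e-05, edgeR) and -1.12 with nilotinib in the presence of hemin (SE 0.15, adjusted p = 5.78e-06, edgeR). SNRNP200, the helicase of the U5 snRNP, was an exception and was higher with nilotinib in the presence of hemin (0.82, SE 0.14). With hemin in the presence of nilotinib, edgeR called 0 of the 32, where 5.80% of all genes were called. Of the 32, 3 had an unadjusted p under 0.05, and DESeq2 called 1. In that comparison 4 of the 24 hnRNP genes and 3 of the 25 SR-related factors were called higher, against 3.52% of all genes. In both lists 0 were called lower, against 2.28%, and over the alternatives 0 to 4 were called higher in each.

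Of the 10 genes of nonsense-mediated decay, the pathway that degrades the unproductive SR transcripts, 5 were called lower and 2 higher with hemin alone, against 27.8% and 25.7% of all genes (median -0.29 against -0.05 over all genes). With library totals 6 were lower and 1 higher (median -0.53). When nilotinib was added to hemin 3 were higher and 1 lower, 4 of 10 against 64.2% of all genes (median 0.20 against 0.02; 6 higher and 1 lower with library totals). Under nilotinib alone 2 were higher and 0 lower, against 20.7% and 21.8% (median 0.13 against 0.00), with 1 lower at an unadjusted p under 0.05 in edgeR and 0 called lower by DESeq2. Over the alternatives 0 to 4 were higher and 0 to 2 lower. UPF1, the central helicase, had 256 ± 5.84, 299 ± 7.81, 145 ± 17.9 and 267 ± 33.5 CPM (SD, n = 3 each) in the mock groups (DMSO, then nilotinib) and the hemin groups (DMSO, then nilotinib). It was 1.76-fold lower with hemin alone (log2 fold change -0.81, SE 0.13, adjusted p = 7.64e-05, edgeR) and rose 1.83-fold with nilotinib in the presence of hemin (0.87, SE 0.13, adjusted p = 2.42e-05, edgeR). SMG8, a regulator of the kinase SMG1, went the other way (1.09 and -1.19, SE 0.14 each).

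**Figure D5:**
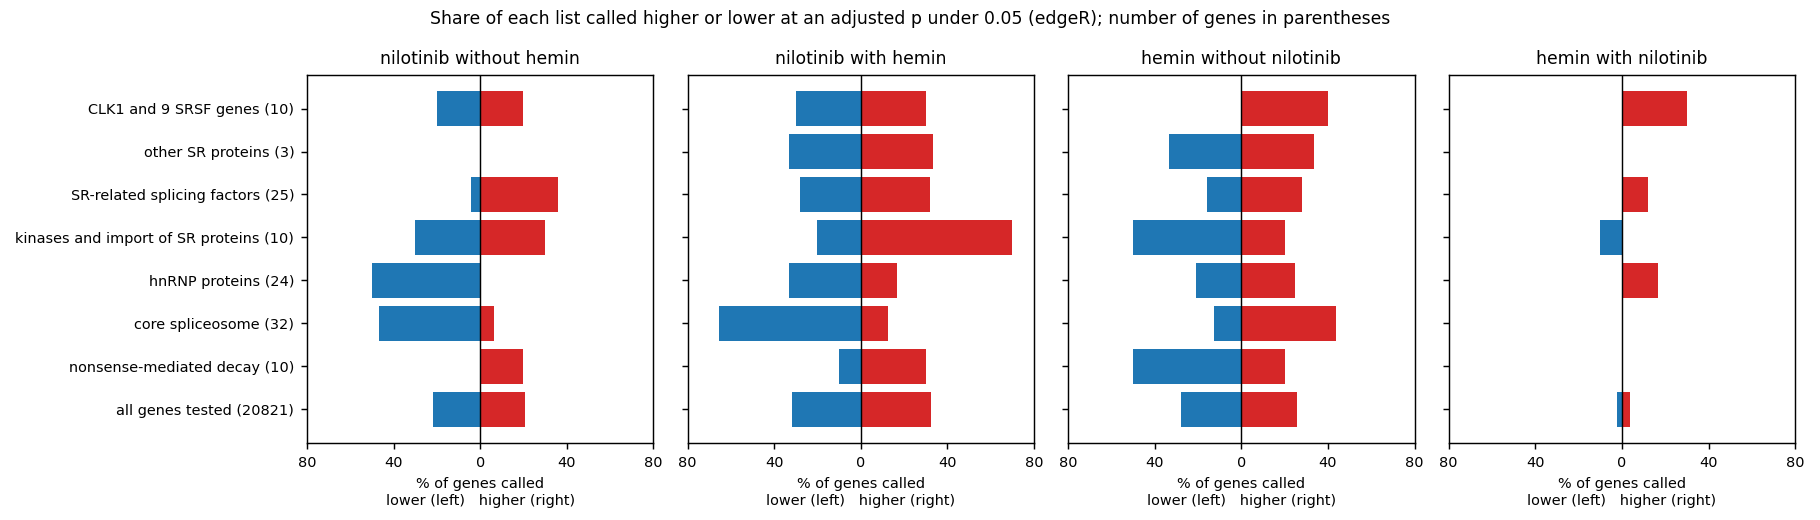
Percent of the genes of each list called higher (red, right) or lower (blue, left) in the 4 comparisons of groups, by edgeR at an adjusted p under 0.05, with the number of genes in parentheses and all 20821 genes tested at the bottom. With nilotinib in the presence of hemin, 21 of 32 core spliceosome genes are lower and 7 of 10 kinase and import genes are higher. For the other SR proteins, the lower bar in that comparison and the higher bar with hemin alone are SRSF12. That gene entered the tests through the hemin DMSO libraries, so these bars are not read as calls.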

How the data were processed

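RNA-seq of K562 cells gave 12 libraries, 3 biological replicates in each of 4 groups taken from the sample labels. The authors deposited raw counts of 150-base paired-end reads per gene, produced by a sequencing company, and all count-based tests started from them. FPKM per library were deposited too. They are proportional to the counts per kilobase divided by median-of-ratios size factors, and so share their scaling with DESeq2. The deposited gene length, in bases, was used for this check, and the authors' table of mean FPKM per group was not used. The submitters' processing notes name DESeq2 and the build GRCh38.p12, and the aligner and the counting program are not given in the sources used here.

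The analysis of counts used edgeR 4.0.16 under R 4.3.3 (filterByExpr with a minimum count of 10 and a minimum total of 15, TMM factors, a quasi-likelihood fit with 1 mean per group over the 12 libraries, two-sided tests). Adjusted p are from the Benjamini-Hochberg procedure over all 20821 genes tested. The tests behind them set each difference between groups against the spread between replicates. For 3 libraries against 3, no exact permutation test can go below 0.1, and none was made. Annotation came from GENCODE 29, and promoters from RefSeq (GRCh38.p14). Likeness used log2 CPM with values under 0.05 set to 0.05. Python 3.11.15 served for summaries and plots, with pandas 2.3.3, numpy 2.4.6 and matplotlib 3.10.9. The test procedure was checked on simulated data with known changes.

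The 10 genes and the lists (other SR proteins, SR-related factors, kinases and import, hnRNP proteins, core spliceosome and nonsense-mediated decay) were chosen with earlier results of these data known. Genes named are these 10, genes of lists of up to 10, in longer lists the 3 called genes with the strongest increase and the 3 with the strongest decrease with nilotinib in the presence of hemin or with hemin alone, the 5 most like CLK1 and the 5 most like the SRSF mean, and genes overlapping the 10 or sharing sequence with them. Alternatives were DESeq2 1.42.0, RLE factors, all genes with at least 1 count, limma-trend (limma 3.58.1) on log2(FPKM + 1), a fit of just the 6 libraries compared, blocking by replicate number, each library left out in turn and, chosen after seeing the data, library totals with no composition factors. Replicates are numbered as in the labels. Departures from the group mean in libraries of equal number correlated above 0.1 in all 3 pairs between mock DMSO and mock nilotinib (0.172 to 0.245) and between mock nilotinib and hemin nilotinib (0.465 to 0.534), and for these comparisons the value with the block is given beside that of the fit without it, which supplies all main values, where the call differs. They did not in every pair between mock DMSO and hemin DMSO (0.087 to 0.207) or between hemin DMSO and hemin nilotinib (-0.134 to 0.251).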

Additional observations from a re-analysis of the deposited data

Results flagged for a closer look

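The effect of nilotinib in the presence of hemin was compared with its effect without hemin for the 10 genes and the 50 named genes of the lists, and the test of the difference (edgeR, adjusted p under 0.05) was passed by 28 of these 60, where 30.1% of all genes tested passed it. The genes of the longer lists were named for their large changes with nilotinib in the presence of hemin or with hemin alone, which enter the difference, so this count is raised by their choice and is not set against that share. Each value is the log2 fold change of nilotinib with hemin minus that without hemin.

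Of the 10 genes, SRSF1 had a difference of 1.33 (SE 0.38, adjusted p = 0.0142), with -1.14 without hemin and 0.19 with it. CLK1 had a difference of -1.83 (SE 0.31, adjusted p = 0.000491), with 0.72 without hemin and -1.11 with it.

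Of the other SR proteins and the kinases, the difference was 1.01 for SRSF8, 1.11 for CLK2, 0.94 for SRPK1 and 1.36 for SRPK3, whereas it was -1.12 for DYRK1A. SRPK3 lost the call in 1 of 18 alternatives (adjusted p up to 0.0648). Of the genes of nonsense-mediated decay it was 0.65 for UPF1, 0.66 for UPF3A and 0.89 for SMG9, and -0.89 for SMG8. UPF3A lost the call in 11 of 18 alternatives (adjusted p up to 0.103). Of the SR-related factors it was 1.21 for LUC7L and 0.70 for SREK1, and -1.44 for TRA2B, -0.82 for TRA2A and -0.74 for SCAF4. SCAF4 lost the call in 9 of 18 alternatives (adjusted p up to 0.115).

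Of the hnRNP genes, the difference was 0.68 for HNRNPUL2, 1.21 for SYNCRIP, 0.77 for HNRNPLL and 0.52 for HNRNPF, and -0.73 for HNRNPH2 and -0.61 for HNRNPC. The call was lost in 11 of 18 alternatives for HNRNPLL (adjusted p up to 0.102), in 12 for HNRNPF (up to 0.102), in 10 for HNRNPC (up to 0.13) and in 1 for HNRNPH2 (up to 0.0606). Of the core spliceosome it was 0.87 for DDX23 and 1.08 for EFTUD2, and -0.67 for SNRPD2, -0.74 for SF3B4, -1.10 for SF3B1 and -0.95 for SNRPA. The call was lost in 8 of 18 alternatives for SNRPD2 (adjusted p up to 0.0783) and in 1 for SF3B4 (up to 0.0745). Of the 28 differences, 16 were positive and 12 negative.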

How the results depend on the processing

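Over the 700 values of the 10 genes under alternatives, 636 kept call and direction, 22 gained a call, 13 lost it and 29 changed sign, none of which had been called. For SRSF10 with nilotinib in the presence of hemin (-0.02), all genes gave 0.016, library totals 0.146, the block 0.003, and single libraries left out -0.214 to 0.158. For SRSF4 with hemin in the presence of nilotinib (0.00), DESeq2, RLE factors, limma-trend and library totals gave -0.009, -0.006, -0.010 and -0.032, and libraries left out -0.090 to 0.104. For CLK1 in that comparison (0.00) the 6 libraries alone gave 0.008, and libraries left out -0.284 to 0.182. For SRSF5 with hemin alone (0.08) library totals gave -0.147, and libraries left out -0.014 to 0.281.

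With libraries left out, signs also changed for SRSF1 (-0.095 to 0.425) and SRSF2 (-0.041 to 0.456) with nilotinib in the presence of hemin, SRSF6 with nilotinib alone (-0.041 to 0.099), SRSF1 (-0.160 to 0.041) and SRSF2 (-0.175 to 0.034) with hemin alone, SRSF11 with hemin in the presence of nilotinib (-0.074 to 0.011), and SRSF10 in the difference of nilotinib effects (-0.094 to 0.278).

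Of the 10 genes, 4 were called with nilotinib alone, 7 in the 6 libraries alone and 2 to 4 with libraries left out. Among all genes the counts there were 8851 of 20821, 10799 of 18872 and 7103 to 7895 of 21753 to 21841. With hemin in the presence of nilotinib, 3 of the 10 were called, 5 with all genes, 1 in the 6 libraries alone and 0 to 4 with libraries left out. In the difference of nilotinib effects 2 of the 10 were called, and 2 to 4 with libraries left out. For that difference, 6271 of all 20821 genes were called, and 4862 to 6775 of 21431 to 21850 with libraries left out. Over all genes, 1208 were called with hemin in the presence of nilotinib, 1902 by DESeq2, 1987 with all genes, 741 by limma-trend, 183 in the 6 libraries alone and 213 to 2793 with libraries left out. The block, where numbers pair the groups, moved the members called from 4 to 5 with nilotinib alone and from 3 to 4 with hemin in the presence of nilotinib. All genes called moved from 8851 to 9294 and from 1208 to 1587 in these comparisons.

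Library totals shifted the median over all genes by 0.177 with nilotinib in the presence of hemin, by -0.239 with hemin alone and by 0.209 in the difference, and no other scaling shifted it by over 0.1. They turned the split of calls with hemin alone from 5360 higher and 5796 lower to 3881 and 7578, with hemin in the presence of nilotinib from 733 and 475 to 527 and 545 (limma-trend 360 and 381), and in the difference from 3558 and 2713 to 4799 and 1752 (limma-trend 3006 and 3471). Of 127 called values of the 50 other named genes, 39 lost the call under some alternative and 0 changed sign.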
